A study of Mus with 12 samples.

Results

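The genes described here encode the receptor chains through which blood leukocytes receive G-CSF, GM-CSF, M-CSF, IL-3 and IL-6. They were taken by symbol: Csf3r, Csf2ra, Csf2rb, Csf2rb2, Il3ra, Csf1r, Il6ra and Il6st, 8 of the 25247 genes in the blood table, and all 8 had a row. RNA of whole blood came from 12 female mice of the BALB/c strain, bought at the age of 6 weeks. Their blood was collected at the end of the experiment, when they were older. Each of the 4 groups held 3 animals, and every animal gave 1 library. The Solvent group received the acetone and olive oil vehicle alone. The DNCB group was sensitised with 1% 2,4-dinitrochlorobenzene and challenged with 0.5%, which gives skin lesions like those of atopic dermatitis. The scMSC and scivMSC groups received the same DNCB course. Within its challenge period they were given repeated doses of 2000000 human umbilical cord mesenchymal stem cells (MSC) each. The cells were given as 100 µL under the skin in the scMSC group, and as 50 µL under the skin with 50 µL into the tail vein in the scivMSC group. No group received MSC without DNCB, so an effect of the cells in unsensitised mice cannot be read from these libraries, and no injection of the cell vehicle alone was among the groups used here.

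These receptors sit on myeloid cells, among others, and signal through kinases, either bound to the tail of the chain or, for Csf1r, part of it. G-CSF acts through Csf3r, which drives the making and release of neutrophils. GM-CSF and IL-3 each bind a private alpha chain, Csf2ra or Il3ra, and then recruit a shared beta chain, Csf2rb; the mouse also has Csf2rb2, a second beta chain that pairs with the IL-3 alpha chain. M-CSF acts through the tyrosine kinase Csf1r, on which monocytes and macrophages depend. IL-6 binds Il6ra, and the complex signals through gp130, the product of Il6st, a chain found on most cells and shared by several cytokines of the IL-6 family.

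The labelled tissue fitted its markers, since 10 haemoglobin genes took between 91.3% and 95.6% of summed FPKM (fragments per kilobase of transcript and 1e6 fragments) in the 12 libraries. Total estimated counts, in units of 1e6, ranged from 52.2 to 65.1, and those of the other genes summed ranged from 5.84 to 12.9. A gene was tested with edgeR's quasi-likelihood test when its FPKM was at least 1 in at least 3 libraries, which 5527 genes met, with all 12 libraries in 1 fit. It was called at a Benjamini-Hochberg adjusted p under 0.05 over all 5527 genes and a fold change over 2. Of the 8 receptor genes 7 were tested and Il3ra was not. Csf2rb2 passed that filter only through the DNCB libraries and Il6st only through the Solvent libraries, so counts over the tested members are given as a description. Libraries were scaled by their totals. On that scale the median log2 fold change of all tested genes was 0.06 in DNCB relative to Solvent, and relative to DNCB it was -0.63 in scMSC and -1.53 in scivMSC. These 3 comparisons share the DNCB libraries, so their values are set side by side and not as separate evidence. TMM scaling, which assumes that most genes do not change, placed these medians at -0.09, 0.06 and 0.04, and values from it are given beside many of those on library totals.

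In DNCB blood, 6 of the 7 tested receptor genes were higher than in Solvent and 1, Il6st, was lower. Over all genes 15.6% were called higher and 4.87% lower. The share of all tested genes whose libraries did not overlap was 41.5% between DNCB and Solvent, 55.3% between scMSC and DNCB and 73.3% between scivMSC and DNCB. It was 47.6% between scMSC and Solvent, 68.7% between scivMSC and Solvent and 50.5% between scivMSC and scMSC. A separation of groups was thus common. In scMSC blood 6 of 7 were lower than in DNCB, where 24.9% of all genes were called lower, and in scivMSC blood 7 of 7 were lower, where 62.0% of all genes were. Under TMM scaling the DNCB against Solvent calls were 5 higher and 1 lower, beside 16.1% and 11.5% of all genes. Under the same scaling 4 members were called lower in scMSC against DNCB (12.3% of all genes) and 6 in scivMSC against DNCB (18.9%). The F test over the 4 groups passed for 7 of the 7, as it did for 72.3% of all tested genes. The 7 calls between DNCB and Solvent depended on single libraries and were 3 without Solvent replicate 3 or DNCB replicate 2, and 4 without Solvent replicate 2 or DNCB replicate 1. Csf3r and Csf2ra were called in each of the 12 fits that omitted a library, all on the same set of tested genes. The share of all genes called in those fits is not given here.

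**Figure D1:**
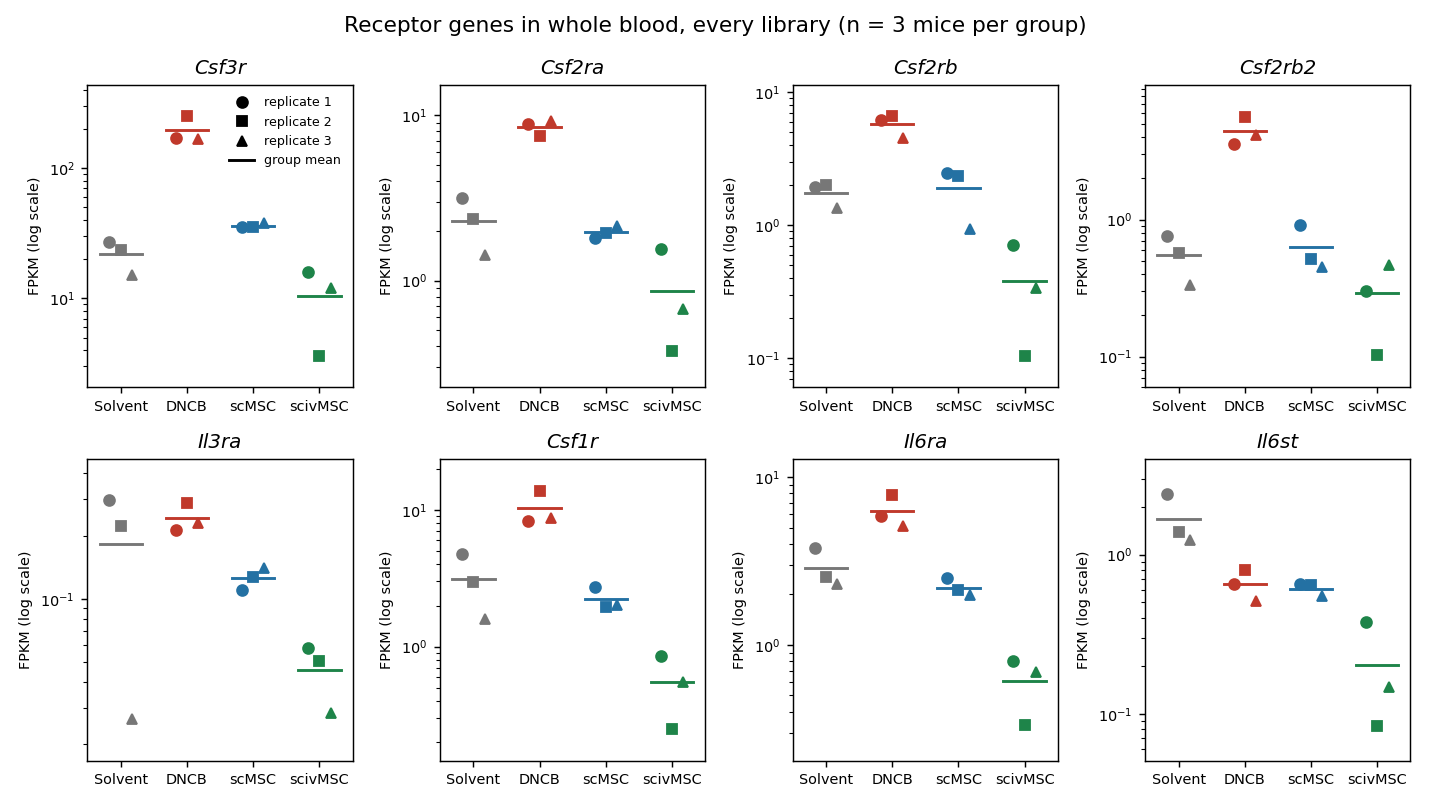
FPKM on a log axis for each of the 8 receptor genes in every library, with 1 symbol per replicate and a line at the group mean (n = 3 mice). The 3 DNCB libraries lie above all others for Csf3r, Csf2ra, Csf2rb, Csf2rb2, Csf1r and Il6ra, whereas for Il6st the 3 Solvent libraries lie highest.

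Csf3r, the G-CSF receptor, was by far the most abundant of the 8 in every group. It lies on chromosome 4 (GRCm38, as for all positions here, chr4:126024550-126044440, plus strand, identifier ENSMUSG00000028859). Its FPKM was 27.1, 23.7 and 15.2 in Solvent replicates 1 to 3, 172, 253 and 168 in DNCB, 35.2, 35.6 and 38.0 in scMSC and 15.9, 3.60 and 12.0 in scivMSC. The DNCB libraries stood clear of the other 9, the scMSC libraries stood clear of Solvent from above, and only the Solvent and scivMSC libraries overlapped. By mean level it ranked 54th of 25247 genes in DNCB, 182nd in scMSC, 328th in Solvent and 436th in scivMSC. The log2 fold change was 3.17 (SE 0.41 and adjusted p = 4.2e-05), or 8.98-fold, in DNCB against Solvent. It was -2.46 (SE 0.40 and adjusted p = 0.000438) in scMSC and -4.23 (SE 0.43 and adjusted p = 4.1e-06) in scivMSC, each against DNCB. Under TMM scaling these 3 values were 3.01, -1.74 and -2.74, and all 3 were called.

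Csf3r also carried most of the summed receptor signal. Its share of the FPKM summed over the 8 genes was 64.2% ± 2.60 (SD, n = 3) in Solvent, 84.3% ± 1.08 in DNCB, 79.0% ± 3.16 in scMSC and 77.2% ± 3.56 in scivMSC. The sum itself was 34.5 ± 10.5 FPKM in Solvent, 234 ± 53.2 in DNCB, 45.9 ± 0.642 in scMSC and 13.4 ± 7.90 in scivMSC.

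Neutrophil markers moved with it. Their 11 listed genes, all tested, were all called higher in DNCB than in Solvent, beside 15.6% of all genes. All were called lower than in DNCB in scMSC and in scivMSC, beside 24.9% and 62.0% of all genes. Under TMM scaling, where these shares were 16.1%, 12.3% and 18.9%, the 11 markers were called in the same directions. Their summed FPKM ran from 208 to 424 in Solvent, 6946 to 10919 in DNCB, 553 to 694 in scMSC and 251 to 744 in scivMSC, and none of the 11 was at 0 in every library of a group. The marker sum differed by more than Csf3r did between DNCB and Solvent. Per 1000 FPKM of neutrophil markers, Csf3r stood at 74.1, 55.9 and 73.2 FPKM in Solvent, 24.7, 23.1 and 23.9 in DNCB, 50.8, 64.4 and 56.6 in scMSC and 21.3, 14.4 and 26.9 in scivMSC. On this measure scMSC overlapped with Solvent and scivMSC overlapped with DNCB. S100a8 and S100a9 made up 70.9% to 87.7% of the sum. Against the other 9 markers, a split chosen after the values were seen, Csf3r stood at 490 ± 66.9 FPKM per 1000 (SD, n = 3) in Solvent, 114 ± 5.31 in DNCB, 250 ± 4.96 in scMSC and 74.2 ± 23.3 in scivMSC. No groups overlapped on that measure. Those 9 are Ly6g, Mmp8, Mmp9, Retnlg, Camp, Ngp, Ltf, Lcn2 and Cxcr2. The part of neutrophil maturity in this measure was not tested. In whole blood, fewer cells of a type and less RNA per cell cannot be told apart, and the part of cell numbers in any receptor value here was not tested.

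**Figure D2:**
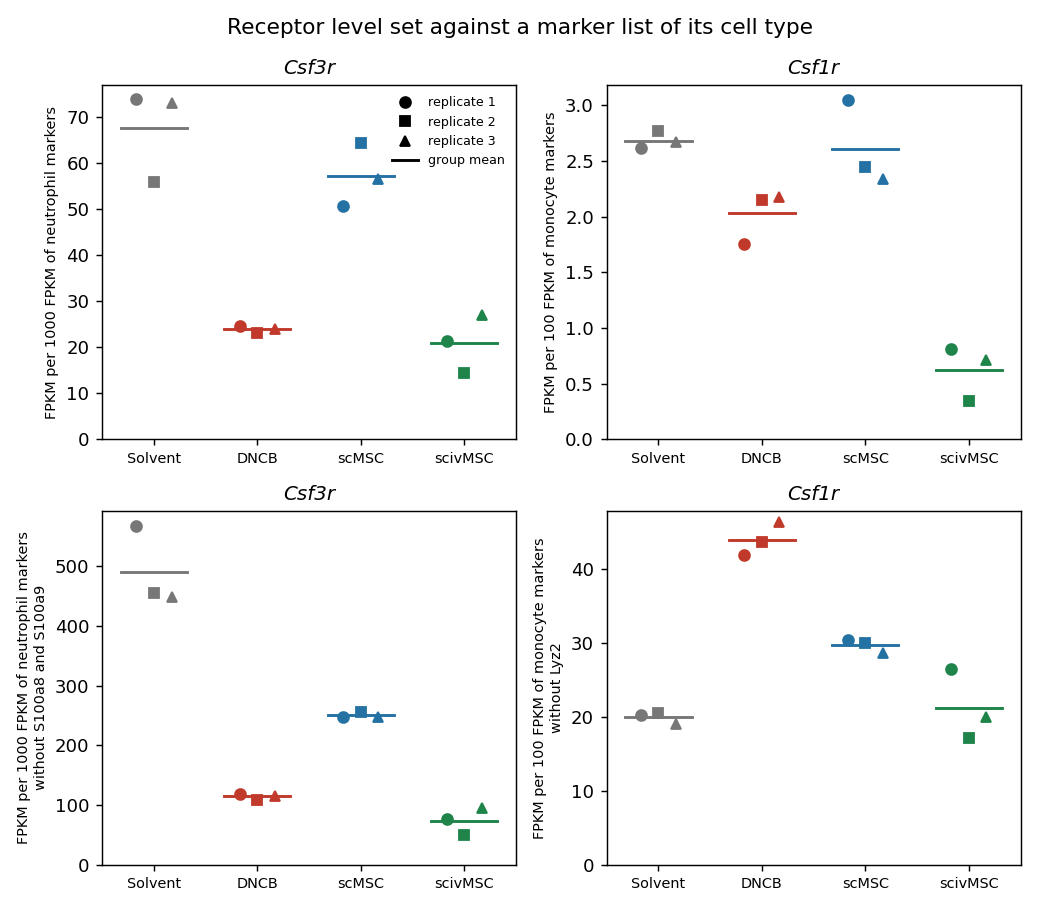
FPKM of Csf3r per 1000 FPKM of the neutrophil marker list (left) and of Csf1r per 100 FPKM of the monocyte marker list (right) in each library, with a line at the group mean; the lower panels leave S100a8 and S100a9, or Lyz2, out of the list. Csf3r per marker is lower in all DNCB and scivMSC libraries than in any Solvent or scMSC library in both panels, whereas for Csf1r DNCB lies below Solvent with Lyz2 in the list and above it without.

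The chains for GM-CSF and IL-3 were at lower levels, and for all but Il3ra the DNCB libraries likewise lay above all others. Il3ra also had its highest mean in DNCB, 0.244 FPKM, but overlapped there with Solvent. Csf2ra, the GM-CSF alpha chain (chr19:61223957-61228429, minus strand), was at 3.14, 2.34 and 1.42 FPKM in Solvent, 8.83, 7.47 and 9.31 in DNCB, 1.80, 1.93 and 2.14 in scMSC and 1.55, 0.372 and 0.669 in scivMSC. Every DNCB library lay above every other library, and the scMSC libraries lay inside the Solvent range. The log2 fold change was 1.88 (SE 0.44 and adjusted p = 0.00577) in DNCB against Solvent, and relative to DNCB it was -2.13 (SE 0.44 and adjusted p = 0.0026) in scMSC and -3.27 (SE 0.47 and adjusted p = 2.6e-05) in scivMSC. Under TMM scaling the last of these was -1.85, still called.

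Csf2rb, the beta chain shared by GM-CSF, IL-3 and IL-5 (chr15:78325752-78351001, plus strand), was at 1.94, 1.99 and 1.34 FPKM in Solvent and 6.15, 6.56 and 4.52 in DNCB. It was at 2.46, 2.34 and 0.932 in scMSC and 0.703, 0.104 and 0.336 in scivMSC. The DNCB libraries were again the highest, and the scivMSC libraries were below all others. Its log2 fold change in DNCB against Solvent was 1.71 (SE 0.51 and adjusted p = 0.0235), and in scivMSC against DNCB it was -3.903 (SE 0.56 and adjusted p = 2.7e-05), or -2.48 under TMM scaling and called there too. The first of these was not called when any Solvent library or DNCB replicate 1 or 2 was omitted, with values from 1.55 to 1.81. In scMSC against DNCB it was -1.60 (SE 0.51 and adjusted p = 0.0271). It was not called under TMM scaling, at -0.88 (adjusted p = 0.0973), nor when DNCB replicate 1 or 2 or scMSC replicate 2 or 3 was omitted, with values from -1.77 to -1.27.

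Csf2rb2, the second beta chain, lies on the minus strand of chromosome 15 (chr15:78282507-78305721), 20.03 kb from Csf2rb. The 2 genes are close paralogs, and how the authors' counting divided reads between them is not given in the sources used here, so the split between them is uncertain. Csf2rb2 was at 0.758, 0.572 and 0.335 FPKM in Solvent, 3.54, 5.62 and 4.12 in DNCB, 0.909, 0.517 and 0.455 in scMSC and 0.300, 0.103 and 0.467 in scivMSC. All libraries outside the DNCB group were under 1 FPKM. After Csf3r it had the largest log2 fold change of the 7 in DNCB against Solvent, 2.99 (SE 0.51 and adjusted p = 0.000492), and the largest fall in scMSC against DNCB, -2.83 (SE 0.51 and adjusted p = 0.000978). In scivMSC against DNCB it was -3.92 (SE 0.54 and adjusted p = 1.8e-05), or -2.34 under TMM scaling and called there too. Since the gene was tested only through the DNCB libraries, these values are given as a description.

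Il3ra, the IL-3 alpha chain (chr14:14346275-14355493, plus strand), was close to the limit of detection. Its FPKM was 0.298, 0.224 and 0.0263 in Solvent, 0.214, 0.288 and 0.231 in DNCB, 0.110, 0.127 and 0.141 in scMSC and 0.0583, 0.0505 and 0.0284 in scivMSC. The estimated counts behind these values were 60, 45 and 6 in Solvent, 40, 55 and 45 in DNCB, 19, 25 and 26 in scMSC and 11, 9 and 5 in scivMSC. The scivMSC group was thus at or under the floor of 12 counts, which stands for 3 fragments. With no filter on low values, the log2 difference of DNCB against Solvent was 0.41 (SE 0.95 and adjusted p = 0.925) and no contrast of Il3ra was called. In scivMSC against DNCB it was -2.33 (SE 1.01 and adjusted p = 0.0944), where the libraries did not overlap, as they did not between scMSC and DNCB.

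Csf1r, the M-CSF receptor on chromosome 18, was at 4.79, 2.96 and 1.59 FPKM in Solvent, 8.29, 13.9 and 8.74 in DNCB, 2.75, 1.94 and 2.01 in scMSC and 0.850, 0.249 and 0.550 in scivMSC. The DNCB and scivMSC libraries were separate from all others, above and below, and the scMSC libraries fell within the Solvent range. The log2 fold change was 1.73 (SE 0.44 and adjusted p = 0.00978) in DNCB against Solvent. Without DNCB replicate 2 or without Solvent replicate 3 it was 1.45 or 1.41 and was no longer called. Against DNCB it was -2.22 (SE 0.45 and adjusted p = 0.00218) in scMSC and -4.23 (SE 0.49 and adjusted p = 6.9e-06) in scivMSC, and under TMM scaling -1.51 and -2.70, both called. Of the 10 monocyte markers 7 were tested, and 2 of them were called higher in DNCB than in Solvent, 4 lower in scMSC and 7 lower in scivMSC than in DNCB, beside 15.6%, 24.9% and 62.0% of all genes. Under TMM scaling 2 were called higher and 1 lower in DNCB, beside 16.1% and 11.5% of all genes. There 4 were lower in each MSC group than in DNCB, beside 12.3% of all genes in scMSC and 18.9% in scivMSC. Their summed FPKM ran from 59.7 to 183 in Solvent, 401 to 646 in DNCB, 79.2 to 90.2 in scMSC and 72.9 to 105 in scivMSC. Per 100 FPKM of these markers Csf1r was at 2.68 ± 0.0788 (SD, n = 3) in Solvent, 2.03 ± 0.237 in DNCB, 2.61 ± 0.384 in scMSC and 0.622 ± 0.248 in scivMSC. Lyz2, which neutrophils also express, made up 86.0% to 98.0% of that sum. Without it, a choice made after the values were seen, Csf1r per 100 FPKM of the other 9 markers was at 19.97 ± 0.795 in Solvent, 44.0 ± 2.29 in DNCB, 29.7 ± 0.881 in scMSC and 21.2 ± 4.80 in scivMSC. The order of DNCB and Solvent thus turned with 1 marker gene, and the part of monocyte numbers in the Csf1r values was not tested.

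The 2 chains of the IL-6 receptor moved in opposite directions in DNCB against Solvent. On library totals only Il6ra was called lower in scMSC against DNCB, and both chains were in scivMSC against DNCB. Il6ra, the ligand-binding chain (chr3:89864059-89913196, minus strand), was at 3.78, 2.54 and 2.30 FPKM in Solvent, 5.90, 7.86 and 5.09 in DNCB, 2.50, 2.12 and 1.98 in scMSC and 0.797, 0.334 and 0.693 in scivMSC. The DNCB libraries were above and the scivMSC libraries below all others. The log2 fold change was 1.13 (SE 0.34 and adjusted p = 0.0262), or 2.19-fold, in DNCB against Solvent, the smallest rise of the 6. Without Solvent replicate 2 or 3, or DNCB replicate 1 or 2, it lay between 0.93 and 1.17 and was not called. Under TMM scaling it was 0.98, with an adjusted p of 0.000528, and missed the 2-fold limit. In scMSC against DNCB it was -1.53 (SE 0.35 and adjusted p = 0.00426), or -0.82 under TMM scaling, where it was not called. In scivMSC against DNCB it was -3.37 (SE 0.37 and adjusted p = 5.2e-06), or -1.79 under TMM scaling and called there too.

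Il6st, the signalling chain gp130 (chr13:112464070-112510086, plus strand), was at 2.41, 1.38 and 1.24 FPKM in Solvent and 0.656, 0.804 and 0.508 in DNCB. It was at 0.649, 0.641 and 0.546 in scMSC and 0.377, 0.0839 and 0.148 in scivMSC. The Solvent libraries were the highest, the DNCB and scMSC libraries overlapped, and the scivMSC libraries were the lowest. Il6st was tested only through the Solvent libraries, so its comparisons with Solvent, here and below, are given as a description. The log2 fold change in DNCB against Solvent was -1.35 (SE 0.46 and adjusted p = 0.0448) on library totals and -1.47 (SE 0.24 and adjusted p = 0.000361) under TMM scaling. On library totals the call was lost when any single Solvent, DNCB or scMSC library was omitted, in 9 fits with values from -1.53 to -0.99. No difference was called in scMSC against DNCB, where the value was -0.11 (95% interval -1.07 to 0.84, adjusted p = 0.864) on library totals and 0.61 (adjusted p = 0.0701) under TMM scaling. In scivMSC against DNCB it was -1.69 (SE 0.47 and adjusted p = 0.00474) and, under TMM scaling, -0.24 (adjusted p = 0.438).

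T cell and B cell markers moved in the direction of Il6st in DNCB against Solvent. Of the 10 T cell markers 9 were called lower, with a median log2 fold change of -1.56. Of the 8 B cell markers 8 were, with a median of -2.10. The share of all genes was 4.87%, and under TMM scaling these counts were the same, beside 11.5%. In scMSC against DNCB under TMM scaling 9 T cell markers were called higher, beside 483 of 5527 genes. There 0 B cell markers were called, and Il6st was not called. The T cell sum ran from 67.4 to 118 FPKM in Solvent, 25.6 to 39.7 in DNCB, 36.4 to 51.6 in scMSC and 9.24 to 23.8 in scivMSC. The B cell sum ran from 50.0 to 154, 13.5 to 38.5, 14.95 to 21.5 and 4.27 to 8.59 in the same order of groups. The part of lymphocyte numbers in the Il6st values was not tested.

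**Figure D3:**
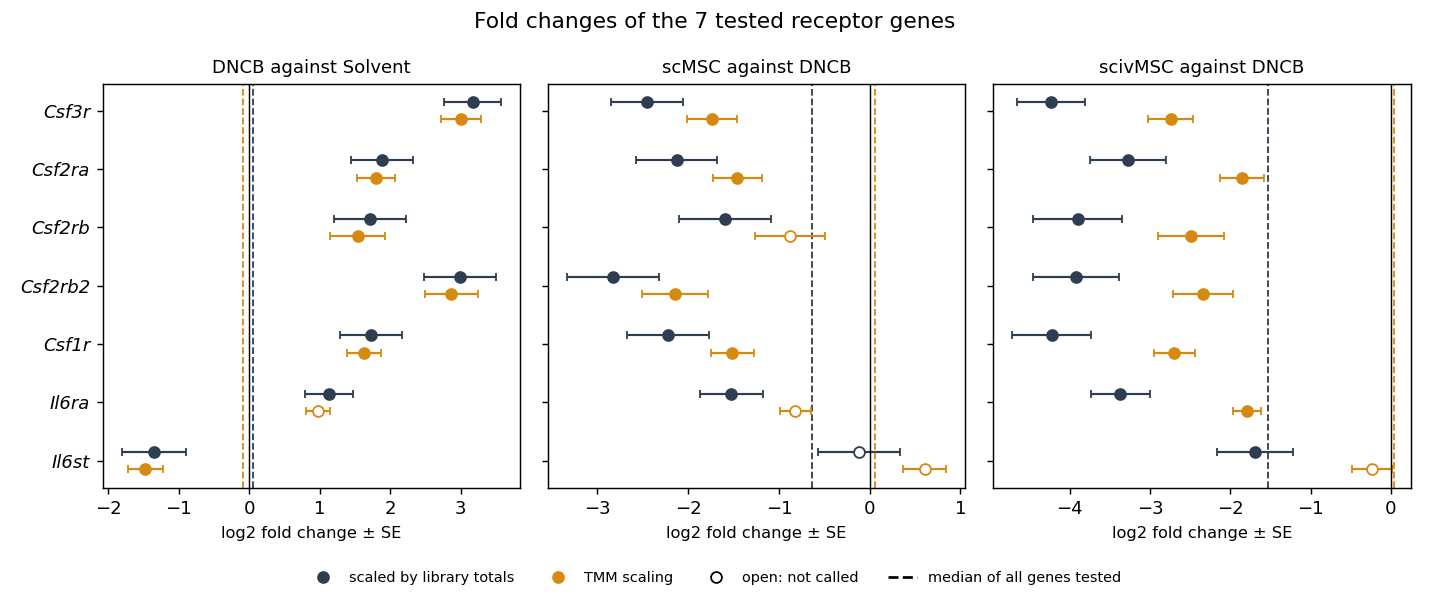
Log2 fold changes with their standard errors for the 7 tested receptor genes in 3 contrasts, from the fit scaled by library totals (dark) and under TMM scaling (orange); open symbols were not called and dashed lines mark the median of all 5527 tested genes. All genes but Il6st lie right of 0 in DNCB against Solvent and left of 0 in both MSC contrasts under both scalings, and Il6st lies left of 0 in the first contrast.

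Against Solvent, the scMSC libraries gave 0 called members by edgeR, beside 0.651% of all genes called in either direction. At an unadjusted p under 0.05 there was 1, Il6st, with a log2 value of -1.47 (SE 0.46 and adjusted p = 0.104). Il6st was called lower in scMSC with haemoglobin left out, at -1.21 (adjusted p = 0.0402), with the 2 groups alone, and without scivMSC replicate 1 or 2. With haemoglobin left out, 216 of 5523 genes were called lower. limma also called 0 members. DESeq2 and TMM scaling each called 1 member, Csf3r, higher in scMSC than in Solvent, by 1.26 and 1.27 on the log2 scale. They called 451 and 403 of 5527 genes higher in this contrast. For Csf3r the 3 scMSC libraries all lay above the 3 Solvent libraries, where 47.6% of all tested genes did not overlap. On library totals Csf3r was at 0.71 (SE 0.38 and adjusted p = 0.211). For the other 5 members, Csf2ra, Csf2rb, Csf2rb2, Csf1r and Il6ra, the values were -0.25, 0.11, 0.16, -0.49 and -0.40, and the libraries of the 2 groups overlapped.

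In scivMSC against Solvent, 6 members were called lower, beside 59.2% of all genes, and Csf2rb2 was not, at -0.93 (SE 0.49 and adjusted p = 0.102), although it was called without scivMSC replicate 3, at -1.46. Il6st had the largest difference, -3.04 (SE 0.49 and adjusted p = 0.000193), followed by Csf1r at -2.50, Il6ra at -2.24, Csf2rb at -2.19, Csf2ra at -1.39 and Csf3r at -1.07. Csf3r was not called without Solvent replicate 1 or 2 or scivMSC replicate 2, at -0.89, -1.01 and -0.66, and Csf2ra was not called without Solvent replicate 1, at -1.10. TMM scaling called 2 of these, Il6st at -1.71 and Csf1r at -1.07, beside 13.4% of all genes called lower. Under it Csf3r turned to 0.26 and Csf2rb2 to 0.53, neither called. In scivMSC against scMSC, 5 members were called lower, beside 30.4% of all genes, and the other two were Csf2ra at -1.15 (adjusted p = 0.0534) and Csf2rb2 at -1.09 (adjusted p = 0.0915). Il6st was not called without scMSC replicate 1 or scivMSC replicate 2 or 3, at -1.54, -1.21 and -1.40, and Csf2ra was called without scivMSC replicate 1, at -1.86. TMM scaling called 3, Csf3r at -1.004, Csf2rb at -1.60 and Csf1r at -1.19, beside 4.92% of all genes. An edgeR fit of those 6 libraries alone called 0 members. It had 6 at an unadjusted p under 0.05 and a lowest adjusted p of 0.0518, and its share over all genes is not given here. DESeq2 on all 12 called 2 members lower, beside 276 of 5527 genes.

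Within 3 of the groups some libraries were at an extreme for most of the receptor genes. Solvent replicate 1 was the highest of its group for 7 of the 8 genes and replicate 3 the lowest for 8. DNCB replicate 2 was the highest for 7, while the lowest value was in replicate 1 for 3 genes, replicate 2 for 1 and replicate 3 for 4. In scivMSC, replicate 1 was the highest for 7 and replicate 2 the lowest for 7. In scMSC no library held such a place, since replicate 1 was the highest for 5 and the lowest for 3, and replicate 3 the highest for 3 and the lowest for 4. scivMSC replicate 2 also had the highest haemoglobin share of all libraries, 95.6%, and DNCB replicate 2 the lowest, 91.3%. The mice of a group were separate animals, so the p-values measure the spread between animals within this 1 experiment.

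The ratio of 2 genes in the same library does not depend on how libraries are scaled, except through the 0.1 FPKM added to each gene, which weighs on low values. Values without that constant, an alternative chosen after seeing the data, are given too. Of 5 ratios compared over the 4 groups, that of Il6ra to Il6st had the lowest p. On the log2 scale, with 0.1 FPKM added to each gene, it was 0.63, 0.84 and 0.84 in Solvent, 2.99, 3.14 and 3.09 in DNCB, 1.79, 1.58 and 1.68 in scMSC and 0.91, 1.24 and 1.68 in scivMSC. With no constant it was 0.65, 0.88 and 0.89 in Solvent, 3.17, 3.29 and 3.32 in DNCB, 1.94, 1.72 and 1.85 in scMSC and 1.08, 1.99 and 2.23 in scivMSC. As geometric means of these, Il6ra stood at 1.75 times Il6st in Solvent, 9.58 times in DNCB, 3.58 times in scMSC and 3.41 times in scivMSC. The exact permutation test over all 369600 splits into 4 groups gave p = 0.00026, adjusted over the 5 ratios 0.0013, and with no constant an exact permutation p of 0.000909, adjusted 0.00455. The DNCB libraries did not overlap with either MSC group, and both MSC groups lay above Solvent without overlap, with or without the constant. For each of these 5 pairs of groups, with the constant, the exact permutation p, two-sided, was 0.1, and 3 mice against 3 cannot give a smaller value. scMSC and scivMSC overlapped.

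With the constant, the ratio of Csf3r to Csf1r was 7.31 in Solvent, 19.2 in DNCB, 15.8 in scMSC and 14.9 in scivMSC (exact permutation p = 0.00552, adjusted 0.0138). With none it was 7.56, 19.3, 16.5 and 18.1 (exact permutation p = 0.0103, adjusted 0.0258). All 9 libraries of the DNCB, scMSC and scivMSC groups lay above the 3 Solvent libraries, and those 3 groups overlapped with each other. The mean log2 ratio of both MSC groups, 3.98 and 3.899, was nearer to that of DNCB, 4.26, than to that of Solvent, 2.87, while the level of each gene in scMSC was nearer to Solvent. The ratio of Csf2rb to Csf2rb2 was 2.90 in Solvent, 1.298 in DNCB, 2.65 in scMSC and 1.16 in scivMSC (exact permutation p = 0.0303, adjusted 0.0378). With no constant it was 3.29, 1.31, 2.93 and 1.198, and the adjusted p was no longer under 0.05 (exact permutation p = 0.0364, adjusted 0.0606). With the constant it missed 0.05 without Solvent replicate 2 or 3, DNCB replicate 2 or 3, scMSC replicate 1 or scivMSC replicate 2, with an exact permutation p of at most 0.0623, and it carries the uncertainty over reads shared by the paralogs.

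The ratio of Csf2ra to Csf2rb was 1.25 in Solvent, 1.49 in DNCB, 1.10 in scMSC and 2.03 in scivMSC, and no difference among the groups was found (exact permutation p = 0.257). Without scMSC replicate 3, in which Csf2rb was low, the exact permutation p was 0.0123. The ratio of Il3ra to Csf2rb was 0.139, 0.0594, 0.121 and 0.350 in the same order of groups (exact permutation p = 0.0113, adjusted 0.0188). This value depended on the added constant: with none, the ratio was 0.0698, 0.0427, 0.0716 and 0.150 with an exact permutation p of 0.377, and on log2 counts plus 1 that p was 0.248.

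**Figure D4:**
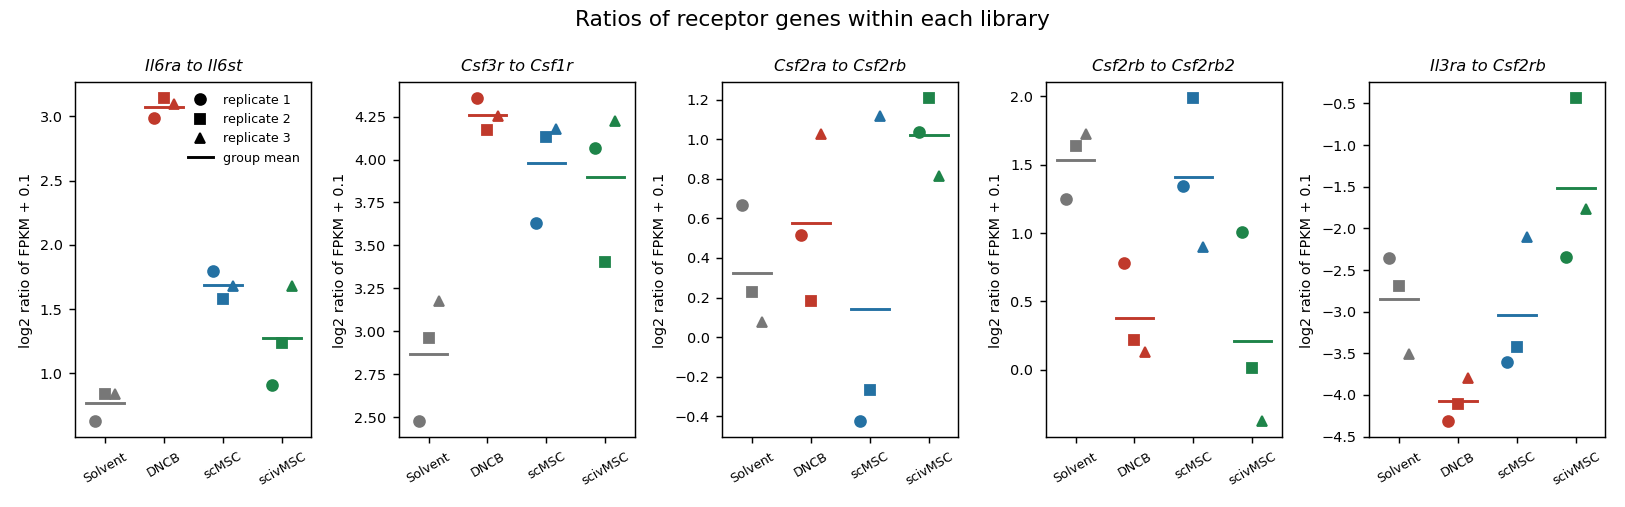
Log2 ratio of FPKM + 0.1 between 2 receptor genes in every library, for the 5 ratios compared, with a line at the group mean. For Il6ra to Il6st the 3 DNCB libraries lie at 2.99 to 3.14, above all others, and the 3 Solvent libraries lie lowest, and for Csf3r to Csf1r the Solvent libraries are separate from the other 9.

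The order of the 8 genes by level was similar in the groups apart from Il6st and Csf1r. In Solvent it ran Csf3r (22.0 FPKM), Csf1r (3.12), Il6ra (2.87), Csf2ra (2.30), Csf2rb (1.75), Il6st (1.68), Csf2rb2 (0.555) and Il3ra (0.183), and from Csf1r to Il6st each gene overlapped with the next. In DNCB, Csf2rb2 (4.43) stood above Il6st (0.656) without overlap, the reverse of their order in Solvent. In scMSC these 2 genes overlapped, at 0.627 and 0.612. In scivMSC Csf3r (10.5) was followed by Csf2ra (0.863), and from Csf2ra to Il6st each gene overlapped with the next.

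Across the 12 libraries, on log2(FPKM + 1), Pearson's r between pairs of the 6 genes other than Il6st and Il3ra lay between 0.869 (Csf2rb2 and Il6ra) and 0.984 (Csf1r and Il6ra). With Il6st the same genes had r from 0.0835 (Csf2rb2) to 0.524 (Il6ra). These are descriptions over libraries that share group structure and library scale. The genes nearest in pattern to Csf3r among 5003 compared were Marcks, a protein kinase C substrate, Pla2g7, the secreted platelet-activating factor acetylhydrolase, and Il1b, the cytokine IL-1β, each with r of 0.995. Msl1 and Ehbp1l1 were among the 3 nearest to Csf1r, and Mocos and Sirpb1c among the 3 nearest to Csf2rb2, the latter pair with r of 0.992 or 0.993. Nearest to Csf2ra were Nadk, an NAD kinase, Lmo4 and Chsy1 (0.981 to 0.989), to Csf2rb Ssh2, Fhod1 and Dusp6, a MAP kinase phosphatase (0.968 to 0.977), and to Il6ra Herc4, Armc7 and Actb (0.991 to 0.993). Il6st had other neighbours, the splicing factor gene Sf3a1, the DNA methyltransferase gene Dnmt1 and Wdr43 (0.984 to 0.986). Such likeness was common in these data, as between 55 (Csf2rb) and 577 (Csf1r) genes had an r over 0.95 with a given member.

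Of 14 ligand genes 10 had a row, 7 of them had an FPKM under 1 in every library, and Il6 itself had at most 9 counts in any library. Csf2, Csf3, Il3 and Il5 were not analysed here. The 3 tested ligands were Csf1, Osm and Clcf1. Csf1, which encodes M-CSF, was at 0.910 ± 0.335 FPKM (SD, n = 3) in Solvent, 3.35 ± 1.25 in DNCB, 1.59 ± 0.134 in scMSC and 0.531 ± 0.270 in scivMSC. It rose in DNCB against Solvent by 1.88 (log2, SE 0.43, adjusted p = 0.00479), and in scMSC against DNCB it was at -1.09 (adjusted p = 0.0621), not called. Osm, which encodes oncostatin M, was at 0.345 ± 0.135 FPKM in Solvent and 1.96 ± 0.768 in DNCB, and it was tested only through the DNCB libraries. Its log2 fold change of 2.48 (SE 0.81 and adjusted p = 0.038) was not called when any Solvent or DNCB library or scMSC replicate 2 was omitted, in 7 fits with values from 2.12 to 2.75. Clcf1, a further cytokine of the IL-6 family, went the other way with Il6st. It was at 3.15 ± 1.13 FPKM in Solvent, 1.07 ± 0.333 in DNCB, 1.28 ± 0.0438 in scMSC and 0.424 ± 0.246 in scivMSC, and its log2 fold change in DNCB against Solvent was -1.54 (SE 0.47 and adjusted p = 0.0269), not called without Solvent replicate 1 or DNCB replicate 1 or 3, at -1.21, -1.48 and -1.37.

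Of 8 related receptor chains only Il27ra was tested. It encodes the IL-27 receptor chain that pairs with gp130, and it fell with Il6st. Its FPKM was 6.67, 4.81 and 4.01 in Solvent, 2.58, 1.94 and 1.75 in DNCB, 3.13, 2.34 and 3.31 in scMSC and 1.47, 0.756 and 0.999 in scivMSC. DNCB against Solvent gave a log2 fold change of -1.299 (SE 0.35 and adjusted p = 0.0135), which was not called without DNCB replicate 2 or 3, at -1.25 and -1.18. The value of scMSC against DNCB was 0.47 (adjusted p = 0.325) on library totals and 1.13 (adjusted p = 0.000888) under TMM scaling, where it was called higher.

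Downstream of the receptors, 13 of 14 kinases, STATs and adaptors were tested. In DNCB against Solvent 6 of them were called higher, Fgr, Lyn, Gab2, Grb2 and Stat3 among them, beside 15.6% of all genes. The other 7 were not called, and the median log2 fold change of the 13 was 0.74, beside 0.06 for all tested genes. Under TMM scaling 5 were called higher, without Grb2, beside 16.1% of all genes. Fgr, a Src family kinase of myeloid cells, had the largest change of these, at 2.81 (SE 0.42 and adjusted p = 0.000181). The adaptor Gab2, tested only through the DNCB libraries, was at 1.93 (adjusted p = 0.00305). Stat3, the transcription factor activated through gp130 and Csf3r, rose by 1.24 (adjusted p = 0.0271), but was not called without Solvent replicate 2 or 3 or DNCB replicate 2, at 1.18, 1.07 and 0.97. Relative to DNCB, 7 were called lower in scMSC and 12 in scivMSC, beside 24.9% and 62.0% of all genes. Their medians were -1.28 and -1.93, beside -0.63 and -1.53 for all genes. Under TMM scaling these counts were 4 lower in scMSC, and 4 lower and 1 higher in scivMSC. The shares of all genes called lower under that scaling were 12.3% and 18.9%.

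Of 4 tested feedback inhibitors among 8 listed, Socs3, which blocks signalling from gp130 and Csf3r, was the 1 called in DNCB against Solvent. Its FPKM was 6.41, 4.20 and 3.30 in Solvent, 16.4, 23.7 and 19.1 in DNCB, 4.25, 3.29 and 3.59 in scMSC and 1.90, 0.722 and 1.97 in scivMSC. It rose by 2.09 (SE 0.38 and adjusted p = 0.000868) in DNCB and fell by 2.42 (SE 0.39 and adjusted p = 0.000433) in scMSC against DNCB. Ptpn6, a phosphatase that restrains these receptors, was at 0.91 (adjusted p = 0.112) in DNCB against Solvent and was called lower in scMSC against DNCB, at -1.65 (adjusted p = 0.00626) on library totals but not under TMM scaling, at -0.94. Cbl, a ubiquitin ligase for Csf1r and other receptors, and Inpp5d, the lipid phosphatase SHIP, were called in scivMSC against DNCB, at -1.99 and -1.56, and under TMM scaling these were -0.45 and 0.03 and not called.

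Of the 10 JAK-STAT target genes, all tested, 6 were called higher in DNCB than in Solvent, beside 15.6% of all genes, and 4 were not called, with a median of 1.75. Cebpd, a transcription factor gene induced by IL-6 and G-CSF, rose by 3.24 (SE 0.39 and adjusted p = 2.2e-05), from 1.63 ± 0.387 to 15.4 ± 4.68 FPKM (SD, n = 3). Junb rose by 1.96 (adjusted p = 0.00148) and Mcl1, which keeps neutrophils alive, by 1.53 (adjusted p = 0.00352). In scMSC against DNCB 6 of the 10 were called lower, beside 24.9% of all genes, with Cebpd at -2.62, Mcl1 at -2.001 and Junb at -1.96. In scivMSC against DNCB 8 were called lower, beside 62.0% of all genes. Under TMM scaling that was 6 lower, beside 18.9% of all genes, and 1 higher. Of 4 tested myeloid transcription factors among 7, Spi1, which encodes PU.1 and activates Csf1r, Csf2ra and Csf3r, rose by 2.93 (SE 0.39 and adjusted p = 6e-05) in DNCB and was at -2.69 in scMSC against DNCB. Cebpe, needed for late neutrophil maturation, rose by 3.86 (SE 0.63 and adjusted p = 0.000362) and was at -2.25 (adjusted p = 0.00877) in scMSC against DNCB. Outside the DNCB libraries it reached 1 FPKM only in scMSC replicate 3. Cebpe thus passed the filter only through the DNCB libraries, and its values are given as a description. Irf8, a monocyte lineage factor, had a log2 value of -0.97 (adjusted p = 0.151) in DNCB against Solvent and of -1.09 (adjusted p = 0.00386) under TMM scaling, where it was called.

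Adam17 and Adam10, proteases that release Il6ra from the cell surface, Adam17 also acting on Csf1r, were not called in DNCB against Solvent, at 0.65 (adjusted p = 0.336) and 0.35 (adjusted p = 0.562). In scMSC against DNCB Adam17 was called lower, at -1.54 (adjusted p = 0.0187) on library totals, and it was not called under TMM scaling, at -0.83, or without DNCB replicate 2 or scMSC replicate 2 or 3, at -1.25, -1.37 and -1.62. Both were called lower in scivMSC against DNCB, at -3.03 and -2.42, where TMM scaling gave -1.54 and -0.87 and called Adam17 alone.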

How the data were processed

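The authors deposited 1 blood table of 25247 genes that holds for every library both FPKM and an estimated count, and all 24 value columns were mapped to 1 of 12 samples. The submitters' processing notes name HISAT2 2.0, StringTie 1.3.0, Bowtie 0.12.2 and the build mm8. The coordinates of the deposited table overlapped the GRCm38.p6 gene of the same symbol for 21402 of 21414 symbols, 99.9%, and for all 8 members, so they are taken as GRCm38. The deposited FPKM values are scaled by the whole library, haemoglobin included. The deposited counts are whole numbers treated as estimated counts, since of values from 1 to 12, 29.0% were 4 and 16.0% were 8. The floor of 12 counts assumes 4 counts per fragment and, like every interval of depth, covers counting error only. Whether reads were assigned by strand is not given in the sources used here.

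Counts were tested with edgeR 4.0.16 in R 4.3.3 (quasi-likelihood, library totals, 4 group means, Benjamini-Hochberg adjustment over 5527 genes). Alternatives were TMM scaling, haemoglobin left out, no filter, a mean FPKM of at least 5, DESeq2 1.42.0, limma 3.58.1 on log2(FPKM + 1) and log2(FPKM + 0.1), each 2 groups alone, a replicate block, and leaving out each library. Marker sums without their most abundant genes, and ratios with no constant, were added after seeing the data. Fits that left out a library kept the set of tested genes. For these fits, the 2 groups alone and the replicate block, the share of all genes called is not given here. A change in their member counts therefore cannot be read as particular to the members. Ratios used log2(FPKM + 0.1) and exact permutation. On simulated counts for DNCB against Solvent with 5527 genes, edgeR recovered 196 of 200 genes changed 8-fold, 98.0%, with 10 false calls. The simulation held no smaller changes and no shift of the median gene. It therefore does not measure recovery or false calls for the smaller fold changes or for the MSC groups.

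The members and gene lists were chosen with earlier results of these data known. All members are described. From each pathway list, up to 4 genes called in DNCB against Solvent, scMSC against DNCB or scivMSC against DNCB are named, by largest change. Genes alike in pattern are the 3 tested genes with the highest r with each member. Some genes that these rules name are not reported here. Promoter and protein sequences were not used here.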

Additional observations from a re-analysis of the deposited data

How the results depend on the processing

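Haemoglobin took most of each library, and Il3ra lay near the floor. On library totals the median log2 fold change of all genes against DNCB was below 0 in both MSC groups. With haemoglobin left out it was -0.25 in scMSC and -0.99 in scivMSC. With a mean FPKM of at least 5, only Csf3r was tested, and the count of called members was 1 in DNCB against Solvent, scMSC against DNCB, scivMSC against DNCB, scivMSC against Solvent, scivMSC against scMSC and the F test. In scMSC against Solvent it was 1 under TMM scaling and in DESeq2, Csf3r, called higher. It was also 1 with haemoglobin left out and with the 2 groups alone, Il6st, called lower. Beside these, TMM scaling and DESeq2 called 403 and 451 of 5527 genes higher, and 216 of 5523 were lower with haemoglobin left out. In scivMSC against Solvent the count of members was 2 under TMM scaling and in DESeq2, beside 741 and 734 genes called lower. In scivMSC against scMSC the count was 3 under TMM scaling and in limma on log2(FPKM + 1), 2 in DESeq2 and 0 with the 2 groups alone. There TMM scaling and DESeq2 called 272 and 276 genes lower. The ratio of Il3ra to Csf2rb had an exact permutation p of 0.248 on log2 counts plus 1 and 0.377 with no constant added, an alternative chosen after seeing the data. The cause of these shifts was not tested.

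Some log2 fold changes turned sign, none of them called under both settings. Under TMM scaling and in DESeq2, Csf3r in scivMSC against Solvent was 0.26 and 0.28, and Csf2rb2 was 0.53 and 0.55. In scMSC against Solvent, Csf2ra was 0.34 and 0.33, Csf1r 0.11 and 0.11, and Il6ra 0.16 and 0.16. In scMSC against DNCB, Il6st was 0.61 and 0.56, and 0.29 with haemoglobin left out, Cbl was 0.113 and 0.0771, and Adam10 was 0.0972 and 0.0553. In scivMSC against DNCB, Clcf1 was 0.21 and 0.19, Il27ra 0.61 and 0.59, and Inpp5d 0.0338 and 0.0257. Per FPKM of the monocyte list without Lyz2, an alternative chosen after seeing the data, Csf1r was at 1.14 (log2) in DNCB against Solvent and -0.57 in scMSC against DNCB, from -0.40 and 0.36 with it.

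Leaving out 1 library at a time, the called members numbered 3 to 7 in DNCB against Solvent, 5 to 6 in scMSC against DNCB, 7 in scivMSC against DNCB, 0 to 1 in scMSC against Solvent, 4 to 7 in scivMSC against Solvent, 4 to 6 in scivMSC against scMSC and 7 in the F test. The exact permutation p ranged from 0.0055 to 0.0284 for Csf3r to Csf1r, 0.0123 to 0.46 for Csf2ra to Csf2rb, 0.0056 to 0.0623 for Csf2rb to Csf2rb2, 6.5e-05 to 0.00091 for Il6ra to Il6st and 0.0038 to 0.0397 for Il3ra to Csf2rb. In scMSC against Solvent, Csf2ra ran from -0.50 to 0.0469, Csf2rb from -0.11 to 0.44 and Csf2rb2 from -0.20 to 0.46. Il6st in scMSC against DNCB ran from -0.268 to 0.0621 and Cbl in DNCB against Solvent from -0.30 to 0.59.

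The labels number replicates alike in the 4 groups, but same-numbered libraries did not deviate together: the correlation of their deviations ran from -0.20 to 0.17 over 18 pairs and exceeded 0.1 in 3. With the replicate block the called members were 7, 6, 7, 0, 6 and 6 in the 6 contrasts in the order above, and the ratio of Il6ra to Il6st had an exact permutation p of 0.00174.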
